A study of Mus musculus with 35 samples.

Results

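The respiratory chain of the inner mitochondrial membrane was described here through its nuclear-encoded genes in primary mouse embryonic fibroblasts (MEFs) exposed to methyl methanesulfonate (MMS), a methylating agent. Members were all genes whose symbol begins with Ndufa, Ndufb, Ndufc, Ndufs, Ndufv, Sdha to Sdhd, Uqcr, or Cox4 to Cox8, which gave 77 of the 18194 genes represented on the arrays. By known role, 42 of them belong to complex I, 8 to complex II, 8 to complex III and 19 to complex IV. Ndufa4 and its relative Ndufa4l2 were placed with complex IV, where Ndufa4 resides despite its name. The prefixes also take in 12 assembly factors, Ndufaf1 to Ndufaf8 and Sdhaf1 to Sdhaf4, which help to build complexes I and II and are not part of them. Of the members, 75 passed the filter on low signal, 63 of them subunits. Ndufb4 and Cox7b2 did not pass, Ndufa11 and Ndufs6 were found only on probe sets shared with other symbols, and Cox7b was not analysed here.

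The study followed MMS-treated and control MEFs through time to learn which transcripts respond to alkylation. The cells were taken from C57BL6/J embryos of day 15.5 and grown for 2 passages at 5% O2, per the labels. The study's methods give an earlier embryonic day and more passages, and state that head and liver were removed. Control cells received fresh medium and were collected at 0, 1, 8, 24 and 72 h, and treated cells received fresh medium with MMS at 40 µg/mL and were collected at 1, 8, 24 and 72 h. The labels name no transgene or deletion in any group. There were 4 arrays per group and 3 for MMS at 72 h, whose replicate 4 was not analysed here, 35 arrays in all. No source says whether replicates came from separate cultures, and p-values then measure only the spread between these samples, which may be technical.

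Complex I takes electrons from NADH and complex II from succinate, complex III passes them from ubiquinol to cytochrome c, and complex IV hands them to oxygen. The core subunits of complex I include those that carry its redox centres, while accessory subunits surround and stabilise the core. The catalytic membrane subunits of complexes I, III and IV are in large part encoded by mitochondrial DNA. All subunits of complex II are nuclear. Transcription factors NRF1, GABPA, which binds an ETS core sequence, and YY1 are known regulators of many of these genes.

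Promoters are shown for Sdha, Sdhd and Ndufs3, which rose after MMS at 24 h, and for Cox6a1, Ndufs5 and Uqcr11, which did not pass the test at that time, because all 6 hold a motif of these factors. Each line gives the 120 bases before the start of the RefSeq transcript on the minus strand of GRCm38.p6, read 5′ to 3′. Capitals mark matches on either strand to the NRF1 motif, GCGCA and GCGC with any 1 base between them, or to the ETS core CCGGAAG, whose reverse is printed as it stands in the sequence. The positions are chr13:74350241-74350360 for Sdha, chr9:50603850-50603969 for Sdhd, chr2:90904722-90904841 for Ndufs3, chr5:115348959-115349078 for Cox6a1, chr4:123718187-123718306 for Ndufs5 and chr10:80406822-80406941 for Uqcr11.
Sdha: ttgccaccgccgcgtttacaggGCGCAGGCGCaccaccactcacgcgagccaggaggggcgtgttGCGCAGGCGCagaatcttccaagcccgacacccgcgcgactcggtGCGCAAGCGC
Sdhd: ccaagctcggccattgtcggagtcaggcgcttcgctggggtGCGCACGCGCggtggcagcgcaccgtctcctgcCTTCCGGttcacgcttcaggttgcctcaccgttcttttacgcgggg
Ndufs3: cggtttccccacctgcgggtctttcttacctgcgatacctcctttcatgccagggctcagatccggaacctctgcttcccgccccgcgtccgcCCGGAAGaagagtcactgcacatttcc
Cox6a1: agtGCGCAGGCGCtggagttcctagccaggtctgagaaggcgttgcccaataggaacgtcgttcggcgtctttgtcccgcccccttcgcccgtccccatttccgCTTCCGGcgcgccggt
Ndufs5: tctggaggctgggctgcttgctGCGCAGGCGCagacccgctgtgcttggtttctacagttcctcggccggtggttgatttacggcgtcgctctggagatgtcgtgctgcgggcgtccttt
Uqcr11: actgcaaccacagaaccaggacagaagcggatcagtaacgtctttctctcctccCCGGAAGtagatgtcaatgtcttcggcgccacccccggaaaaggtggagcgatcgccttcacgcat

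A RefSeq promoter window of 300 bases, 250 before the start and 50 after it, was found for 63 of the 77 members. The NRF1 motif stood in 13 of these 63 (20.6%) and in 5.19% of the 27025 genes with a window. The ETS core stood in 16 (25.4%) and in 9.93% of all genes. The YY1 motif AANATGGCG stood in 8 (12.7%) and in 2.76% of all genes. At least 1 of the 3 motifs was present in 32 of 63 members (50.8%) and in 15.9% of all genes. Of the members called higher after MMS at 24 h, 12 of 21 held a motif (57.1%), and of those not called higher 19 of 40 did (47.5%). A match describes the letters of the window and is not a measured site of binding.

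Values are log2 signals of the authors' normalization, with array medians of 4.98 to 5.09, and a gene is represented by the brightest of its probe sets. Between 1 gene and another such signals are not comparable levels, so all comparisons below are of 1 gene between groups. All 10 fibroblast markers were above the limit of low signal, log2 4.40, in every group, but their mean was 10.13 in MMS 24 h against 11.17 in control 24 h, and 10.59 in MMS 8 h against 11.25 in control 8 h. Intestinal transcripts stood out in replicate 3 of control 0 h, MMS 1 h, MMS 24 h and MMS 72 h, with marker means of 11.44, 7.61, 9.61 and 6.40, against 4.14 to 5.74 on the other arrays. The macrophage marker mean was 8.63 to 8.80 in control 8 h and 8.11 to 8.33 in MMS 8 h, and 4.53 to 6.29 elsewhere, and a principal component with 44.5% of the variance set all 8 h arrays against the rest. In such bulk samples fewer cells of a type and less RNA per cell cannot be told apart.

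The members differed first of all in how closely arrays of the same group agreed. The pooled standard deviation (SD) within groups had a median of 0.09 log2 units over the 6 core subunits of complex I and 0.10 over the 4 subunits of complex II. It was 0.20 over the 27 accessory subunits of complex I, 0.37 over the 8 subunits of complex III and 0.31 over the 10 ubiquitous subunits of complex IV. The median of all 14135 genes tested was 0.15. Cox6c, a small subunit of complex IV, had the highest value of any member, 0.61, and Ndufa10, an accessory subunit of complex I, the lowest, 0.06. A limit of 0.30, 2 times the median of all genes and set after the values were seen, left 24 members above it, which is 32.0% of the members tested and compares with 6.31% of all genes.

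**Figure D1:**
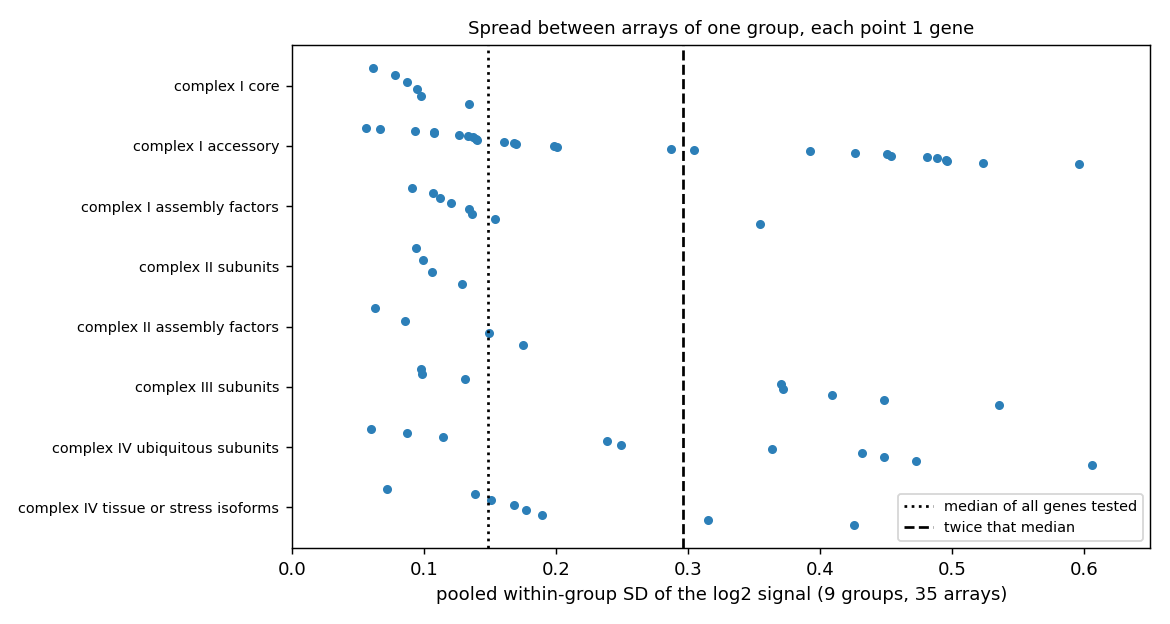
Pooled within-group SD of the log2 signal (x axis) of each tested member by role (y axis), each point 1 gene, over 9 groups and 35 arrays. The dotted line is the median of all genes tested, 0.15, and the dashed line is 2 times that median. None of the complex I core subunits and none of the complex II subunits lies beyond the dashed line, whereas 5 of 8 complex III subunits do.

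These 24 members of large spread are 11 accessory subunits of complex I (Ndufa1, Ndufa2, Ndufa3, Ndufa5, Ndufa6, Ndufa7, Ndufb2, Ndufb3, Ndufb6, Ndufc1 and Ndufs5), the assembly factor Ndufaf8, 5 small subunits of complex III (Uqcr10, Uqcr11, Uqcrb, Uqcrh and Uqcrq), and 7 genes of complex IV (Cox6b1, Cox6c, Cox7a2, Cox8a, Ndufa4 and the isoforms Cox6b2 and Cox7a1). All 24 lay below their group mean on 6 of the 35 arrays, all above it on 9 arrays, and on both sides of it on 20. In MMS 24 h replicate 3 all 24 lay below their group mean, with a mean deviation of -0.95 log2 units, and in control 72 h replicate 1 all 24 lay below it, with a mean of -1.20. The 51 members of small spread deviated on average by -0.15 and -0.09 on these same arrays. Both classes were defined by the spread over these same arrays, so this contrast between them follows in part from the definition. A low array also lowers the mean of its group, which places other arrays of that group above it. The mean of 41 ribosomal protein genes was also low there, with deviations of -0.41 and -0.43. Of these ribosomal protein genes 15 (36.6%) had an SD above the same limit. The difference between 3′ and 5′ probe sets of Actb was 0.45 in control 72 h replicate 1 and 0.25 to 0.30 in the other 3 arrays of its group, whereas for MMS 24 h replicate 3 it amounted to 0.26, and for the others of that group to 0.27 to 0.33. The same difference for Gapdh set that replicate apart, with -0.24 against -0.15 to -0.14. So did its intestinal marker mean, 9.61 against 4.14 to 4.21 on the other arrays of its group, whereas control 72 h replicate 1 had 4.22. The part of RNA or cell composition in these deviations was not tested.

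**Figure D2:**
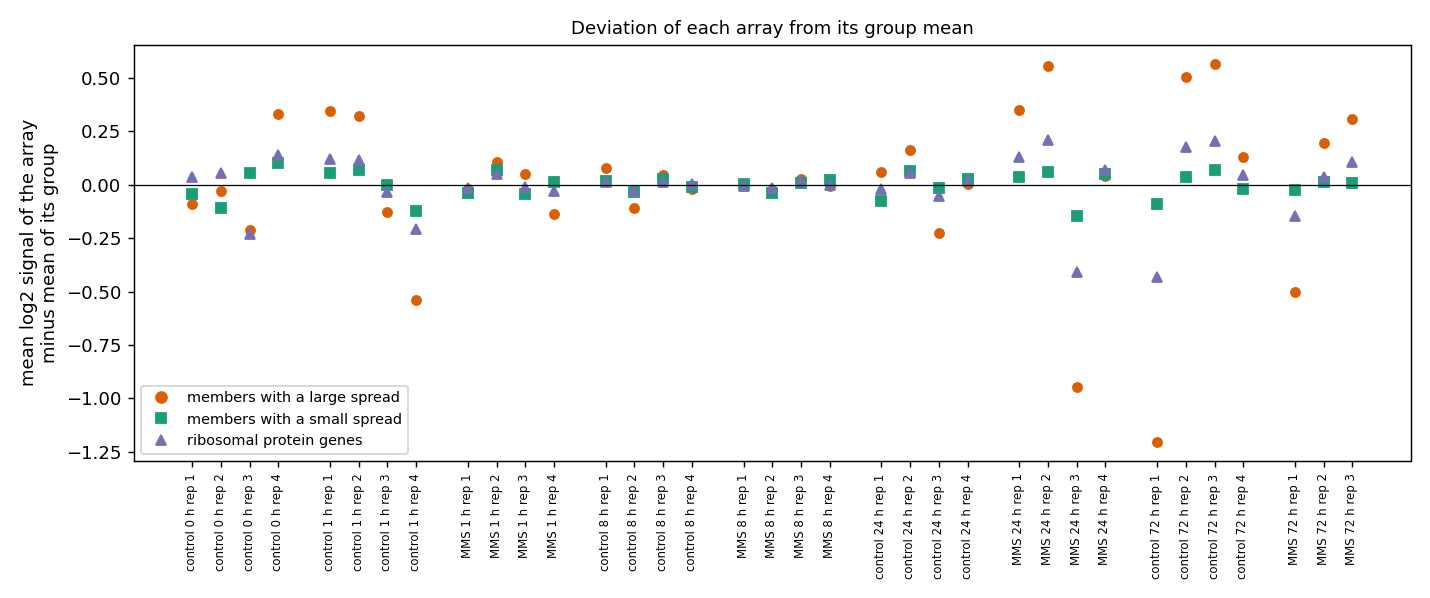
Mean log2 signal of each array minus the mean of its group (y axis) for 35 arrays (x axis), given for the 24 members of large spread (circles), the 51 of small spread (squares) and 41 ribosomal protein genes (triangles). The lowest circles are those of MMS 24 h replicate 3, at -0.95, and of control 72 h replicate 1, at -1.20, where the triangles lie at -0.41 and -0.43.

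The pattern can be seen in single genes. Ndufs5, an accessory subunit of complex I in the intermembrane space, had signals of 9.90, 10.12, 8.09 and 9.59 in MMS 24 h and of 6.90, 9.64, 9.63 and 9.31 in control 72 h. Uqcr11, a small subunit of complex III, had 9.59, 10.03, 7.98 and 9.26 in MMS 24 h and 7.60, 9.53, 9.56 and 8.98 in control 72 h. One array of each group lay more than 1 log2 unit below all the others for both genes, and it was the same array. Ndufs3, a core subunit of complex I, had 10.70, 10.66, 10.45 and 10.66 in MMS 24 h, with its lowest value on that same array.

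**Figure D3:**
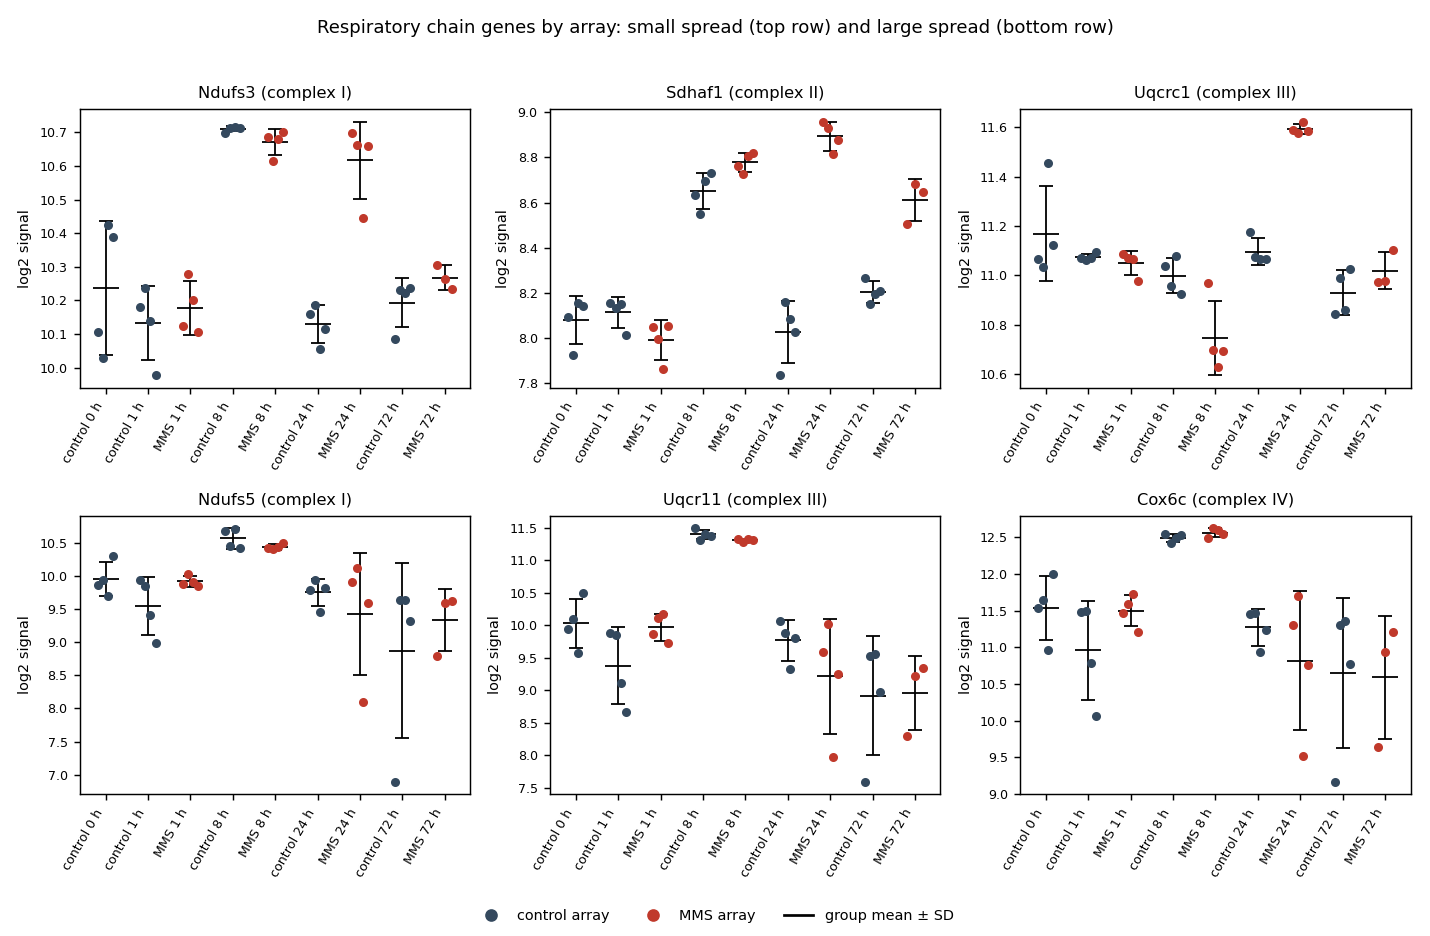
Log2 signal (y axis) of 6 members on every array by group (x axis), controls in grey and MMS in red, with the group mean and SD as bars. Ndufs3, Sdhaf1 and Uqcrc1 in the top row vary little within groups, and Ndufs5, Uqcr11 and Cox6c in the bottom row have single arrays far below the rest, such as 6.90 for Ndufs5 in control 72 h.

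MMS raised the transcripts of complex II, of most of the catalytic core of complex I and of the large subunits of complex III at 24 h, while most small accessory subunits did not pass the test. Of 75 members, 27 were higher in MMS than in control cells at 24 h and 3 were lower (adjusted p under 0.05). That is 36.0% and 4.00% of the members, whereas 25.0% of all genes tested were higher and 19.4% lower. The median difference was 0.05 over members and 0.01 over all genes. All 27 called higher and all 3 called lower were of small spread, and none of the 24 of large spread was called. The test weighs a difference against the within-group spread, so members of large spread could hardly be called. This split of the calls was thus largely set by how the classes were defined. The members of large spread had a median difference of -0.23 that became 0.11 without MMS 24 h replicate 3. Without the 4 arrays with intestinal transcripts, 29 members were higher and 2 lower, 28 of the 30 calls were kept, and Cox7a2l and Cox8b were lost. With the ribosomal protein mean of each array as a covariate, tried once the values had been seen, 36 members were higher, 5 of them of large spread. The fall of the fibroblast markers at 24 h runs alongside these changes, and its part in them was not tested.

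Complex II, succinate dehydrogenase, had all 4 subunits higher at 24 h. Sdha, which holds the flavin, rose by 0.33 log2 units, Sdhb, the iron-sulphur subunit, by 0.20, and the membrane anchors Sdhc and Sdhd by 0.26 and 0.38. Signals of Sdhb were 11.13, 11.28, 11.23 and 11.22 in control and 11.43, 11.37, 11.49 and 11.40 in MMS cells. Its groups did not overlap, but the adjusted p of 0.0312 was the weakest of the 4, and without MMS 24 h replicate 3 Sdhb was no longer called. The mean of the 4 subunits was 10.92 to 10.97 on the control arrays and 11.19 to 11.31 on the MMS arrays. Among the assembly factors, Sdhaf1, which serves the iron-sulphur clusters of Sdhb, had 7.84, 8.16, 8.09 and 8.03 in control and 8.96, 8.93, 8.81 and 8.88 in MMS cells, a difference of 0.87 (SE 0.06, adjusted p = 1.86e-12). Sdhaf4 rose by 0.64 and Sdhaf2, which attaches the flavin to Sdha, by 0.36.

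In complex I, 13 of 41 members were higher and 2 lower at 24 h. Of the 6 core subunits 4 rose, with a median of 0.36 over all 6. Ndufs3 had 10.16, 10.19, 10.06 and 10.11 in control against the MMS values above, a difference of 0.49 (SE 0.07, adjusted p = 1.37e-06). Ndufs1, the largest iron-sulphur subunit, had 10.17, 10.16, 10.21 and 10.20 in control and 10.53, 10.51, 10.62 and 10.57 in MMS cells, a difference of 0.37. All MMS arrays lay above all control arrays for both genes. Ndufs7, an iron-sulphur subunit near the quinone site, rose by 0.41 and Ndufv1, which binds NADH and flavin, by 0.35. Ndufv2, the partner of Ndufv1 in the NADH module, fell by 0.19 log2 units (adjusted p = 0.00975). Ndufs8 had a difference of -0.17 that was not called.

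Of the 27 accessory subunits of complex I, 6 were higher (22.2%, near the 25.0% of all genes), 1 was lower and the median was 0.00. Of these 27, 11 were of large spread, for which a rise like that of the core subunits might not have been called. The share higher therefore does not set accessory subunits apart from the core. Ndufab1, the mitochondrial acyl carrier protein, had 11.18, 11.35, 11.09 and 11.10 in control and 12.004, 12.13, 11.69 and 12.07 in MMS cells, a difference of 0.79. Ndufc2, Ndufa9, Ndufa8, Ndufb9 and Ndufa10 rose by 0.56, 0.41, 0.37, 0.37 and 0.14. Ndufv3, an accessory subunit of the NADH module, was the exception, with 10.38, 10.39, 10.17 and 10.39 in control and 9.78, 10.02, 9.16 and 9.61 in MMS cells, a difference of -0.69 (SE 0.14, adjusted p = 0.000105). Of the 8 complex I assembly factors 3 rose. Ndufaf3, which acts on an early intermediate of the peripheral arm, had 7.41, 7.41, 7.23 and 7.28 in control and 8.48, 8.48, 8.01 and 8.49 in MMS cells, a difference of 1.03 (SE 0.09, adjusted p = 2.39e-11) and the greatest among the 75 members at 24 h. Ndufaf1, a membrane arm assembly factor, rose by 0.61 and Ndufaf6 by 0.36.

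In complex III the called members were its large subunits. The large subunits Uqcrc1 and Uqcrc2, the core proteins, and Uqcrfs1, the Rieske iron-sulphur protein, rose by 0.50, 0.42 and 0.48, while the 5 small subunits were all of large spread and none was called. Their median was -0.25, or 0.04 without MMS 24 h replicate 3, and at such a spread a rise like that of the large subunits might not have been called. Uqcr10 differed by 0.03 on its brightest probe set, but by 0.63 and 0.30 on its others. Further probe sets above the limit of low signal differed by -0.29 for Uqcrb, -0.23 for Uqcrh, and -0.07 and -0.41 for Uqcrq. Uqcrc1 had 11.18, 11.07, 11.07 and 11.07 in control and 11.59, 11.58, 11.62 and 11.58 in MMS cells. Uqcr11 had 10.07, 9.88, 9.32 and 9.81 in control, and these overlap its MMS values above.

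In complex IV, 4 of 18 members were higher (22.2%) and 1 lower (5.56%), beside 25.0% and 19.4% of all genes. Of its 10 ubiquitous subunits 5 were of large spread, and of its 8 isoforms 2. A rise of these might not have been called, so the share higher is not read as a shortfall. Cox4i1, a subunit needed early in assembly, had 12.66, 12.80, 12.60 and 12.66 in control and 13.03, 13.07, 13.00 and 13.12 in MMS cells, a difference of 0.38 (SE 0.05, adjusted p = 2.32e-07). Cox5a, its partner in assembly, rose by 0.40. Cox7c rose by 0.71, from a low signal, and Cox7a2l by 0.15. Cox8b, the muscle isoform of subunit VIII and 1 of the 3 members called lower, had means of 4.55 in control and 4.23 in MMS cells, the latter under the limit of low signal, so that no size is given for its difference. The mean of the complex IV subunits without isoforms was 11.28 to 11.46 on control arrays and 10.82 to 11.74 on MMS arrays, which overlap through MMS 24 h replicate 3, since the other 3 MMS arrays lay at 11.51 to 11.74. For complex I the means were 10.31 to 10.56 and 9.99 to 10.75, and these overlap as well.

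**Figure D4:**
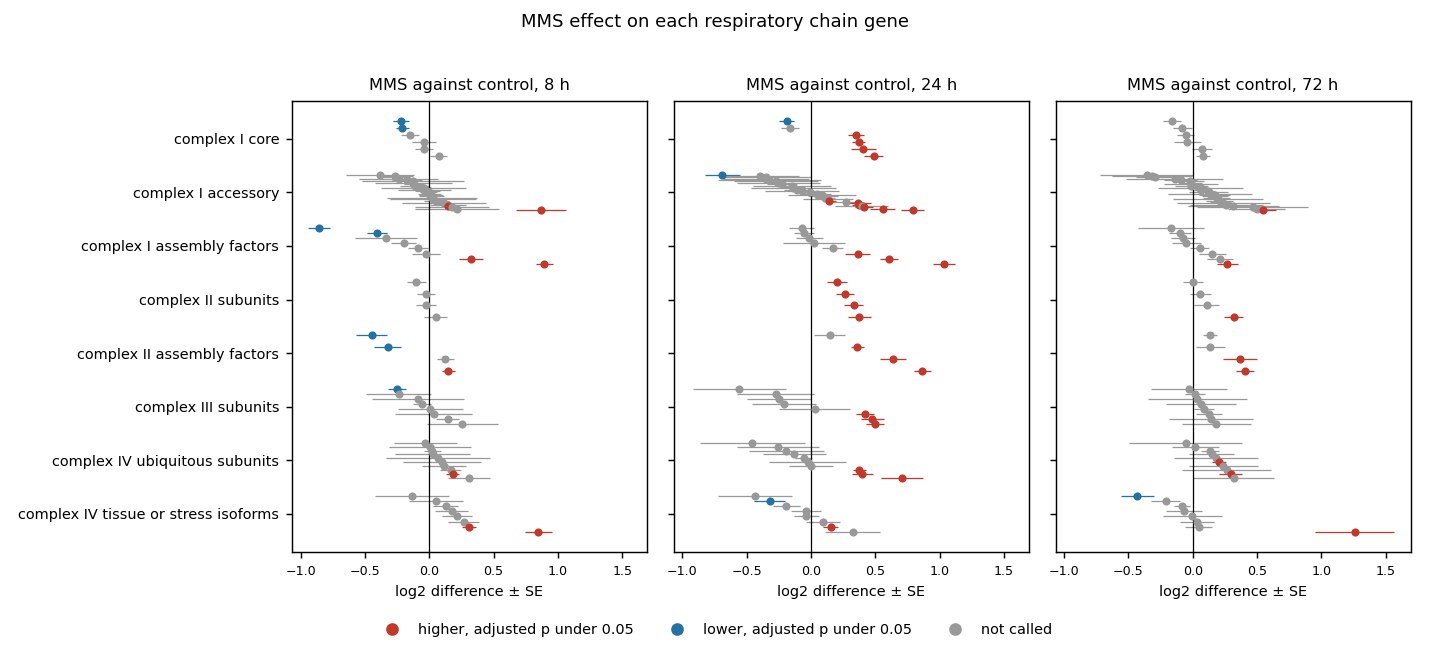
Log2 difference between MMS and control cells (x axis, bars are standard errors) for each tested member by role (y axis) at 8, 24 and 72 h, red and blue where the adjusted p is under 0.05. At 24 h the 4 complex II subunits are all red, between 0.20 and 0.38, and the greatest value is that of Ndufaf3, 1.03.

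Members with more than 1 probe set gave a check on these calls. Of 23 further probe sets above the limit of low signal that belong to members called at 24 h, 19 moved in the same direction. The exceptions were 1 probe set each of Ndufa10, Ndufab1, Ndufb9 and Sdha, with differences of -0.15, -0.06, -0.07 and -0.12.

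At 8 h few members of the respiratory chain were called, and these in both directions. Of 75 members 8 were higher (10.7%) and 7 lower (9.33%), whereas 28.7% of all genes were higher and 25.0% lower. Their median was 0.01 and that of all genes 0.06. Assembly factors and isoforms made up most of the calls, and 2 of the 6 core subunits of complex I, Ndufs1 and Ndufv2, fell by 0.21 and 0.22 log2 units. None of the members of large spread was called, with their spread pooled over all groups. The mean of these members had an SD of 0.08 in control 8 h and 0.02 in MMS 8 h, against 0.83 in control 72 h. A difference at 8 h might thus not have been called for them. With only both 8 h groups in the model 14 were lower, and with the ribosomal protein covariate 15. The difference between 3′ and 5′ probe sets of Actb was 0.20 to 0.24 in control 8 h and 0.37 to 0.49 in MMS 8 h, and its part in these differences was not tested.

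Ndufaf1 and Ndufaf3 moved in opposite directions at 8 h. Ndufaf1 had 8.21, 8.39, 8.38 and 8.33 in control and 9.24, 9.13, 9.29 and 9.22 in MMS cells, a difference of 0.89 (SE 0.07, adjusted p = 1.76e-12). Ndufaf3 had 7.95, 7.94, 8.00 and 7.89 in control and 7.05, 7.06, 7.16 and 7.09 in MMS cells, a difference of -0.86 (SE 0.09, adjusted p = 7.68e-10). Neither pair of groups overlapped. Cox6a2, the heart and muscle isoform of subunit VIa, had 6.32, 6.49, 6.47 and 6.14 in control and 7.21, 7.05, 7.32 and 7.22 in MMS cells, a difference of 0.85. Ndufb1, a small membrane arm subunit, had 8.59, 8.26, 8.68 and 8.38 in control and 9.25, 9.23, 9.42 and 9.50 in MMS cells. Both were higher on every MMS array. Smaller rises were those of Ndufaf6 (0.32), Cox7a2l (0.31), Cox4i1 (0.18), Ndufa10 (0.15) and Sdhaf2 (0.15), and Sdhaf3, Ndufaf7, Sdhaf4 and Uqcrc1 fell by 0.45, 0.41, 0.32 and 0.25 log2 units, Uqcrc1 with overlapping arrays.

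In all, 6 members were higher at both 8 and 24 h, namely Cox4i1, Cox7a2l, Ndufa10, Ndufaf1, Ndufaf6 and Sdhaf2, and Ndufv2 was lower at both. Ndufaf3, Ndufs1, Sdhaf4 and Uqcrc1 were lower at 8 h and higher at 24 h. The change of the MMS effect was tested directly. From 8 to 24 h the effect rose for 21 members and fell for 4, against 23.3% and 22.2% of all genes, led by Ndufaf3 (1.89), Sdhaf4 (0.96), Ndufab1 (0.79), Uqcrc1 (0.75) and Sdhaf1 (0.74). It fell for Cox6a2 (-1.04), Ndufb1 (-0.74) and Ndufaf1 (-0.29), and for Cox8b, whose signal was near or under the limit. From 1 to 8 h the effect rose for 7 members and fell for 3, against 21.3% and 20.0% of all genes. Control cells of each time enter these differences.

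At 72 h the share of members higher was close to that of all genes. Of 75 members 8 were higher (10.7%) and 1 lower (1.33%), with 10.1% of all genes higher and 10.4% lower, and the medians were 0.08 and -0.01. From 24 to 72 h the effect fell for 15 members and rose for 2, against 16.5% and 12.4% of all genes. The change was -1.11 for Ndufaf3, -0.51 for Ndufv1, -0.41 for Ndufs3 and Uqcrc1 alike and -0.33 for Sdha. It rose for Cox6b2 (1.69) and Ndufaf4 (0.32). Cox4i1, Cox5a, Ndufab1, Sdhaf1 and Sdhc were higher at both 24 and 72 h.

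Sdhaf1 had 8.26, 8.15, 8.19 and 8.21 in control 72 h and 8.51, 8.68 and 8.64 in MMS 72 h, a difference of 0.41. Cox4i1 had 12.85, 12.77, 12.83 and 12.82 in control and 13.06, 12.98 and 13.03 in MMS cells, a difference of 0.21. Both sets of arrays were apart. Sdhaf3, Sdhc, Cox5a and Ndufaf4 differed by 0.37, 0.32, 0.30 and 0.27, Cox5a with overlapping arrays. Ndufab1 differed by 0.55 on its brightest probe set but by -0.30 on the one used where probe sets that the maker marks as matching several transcripts were left out. Cox6b2, the testis isoform of subunit VIb and the single called member of large spread, had 6.22, 8.06, 8.08 and 7.80 in control and 8.40, 9.11 and 8.88 in MMS cells, a difference of 1.26 (SE 0.31, adjusted p = 0.00314) that was 0.82 without control 72 h replicate 1. Ndufa4l2, a hypoxia-responsive relative of Ndufa4, had 6.30, 6.62, 6.74 and 6.73 in control and 6.24, 6.10 and 6.16 in MMS cells, a difference of -0.43. With the ribosomal protein covariate 18 members were higher and 3 lower at 72 h.

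At 1 h no member passed the test in either direction by limma, with 1 at an unadjusted p under 0.05, and 0.361% of all genes were higher and 0.0283% lower. The median difference was 0.04 over members and 0.00 over all genes.

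More members were called in control cells between 0 and 8 h than after MMS at any single time. Between 0 and 8 h 46 members were higher and 9 lower, against 35.8% and 23.6% of all genes, with a median of 0.42 over members and 0.09 over all genes. Complex I contributed 30 of its 41 members to the rise. The members of large spread had 19 of 24 higher with a median of 0.88, and the ribosomal protein mean was 12.87 in control 8 h and between 12.17 and 12.51 in the groups of other times. With that mean as covariate 25 members were higher and 18 lower, the median of those of large spread was -0.23, and 23 members changed sign, 13 of them among the calls, such as Cox6c, Uqcrq and Uqcr10. The covariate was 12.23 to 12.59 on control 0 h arrays and 12.84 to 12.88 on control 8 h arrays. Without overlap its part cannot be told apart from that of time, and the sign changes decide nothing. The macrophage markers were higher at 8 h as well, and their part was not tested. Ndufa3, an accessory subunit of complex I, had 10.35, 10.61, 9.98 and 10.97 at 0 h and 12.43, 12.16, 12.30 and 12.34 at 8 h, and Ndufa1, Ndufc1, Uqcr11, Ndufa4 and Uqcrq rose by 1.78, 1.66, 1.37, 1.23 and 1.06. Of the complex I core subunits Ndufs1 was called lower, with a difference of -0.19, and Ndufv2 differed by 0.08. The core subunits Ndufs3, Ndufs8, Ndufs7 and Ndufv1 rose by 0.47, 0.36, 0.33 and 0.24.

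Sdhc went the other way. It had 10.86, 10.89, 11.11 and 11.03 at 0 h and 9.36, 9.33, 9.31 and 9.41 in control 8 h, with 9.44, 9.20, 9.39 and 9.29 in MMS 8 h, so that it was lower on all 8 arrays of that time whatever the treatment. The difference in control cells was -1.62 (SE 0.07, adjusted p = 5.7e-18), but a second probe set of Sdhc differed by only -0.33. Cox6b2, Sdha, Cox7c and Uqcrc2 fell by 1.14, 0.50, 0.49 and 0.31 log2 units between 0 and 8 h.

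From 0 to 1 h Ndufaf1 was the 1 member higher and Sdhc the 1 member lower, with differences of 0.24 and -0.28, against 7.22% and 4.38% of all genes. From 0 to 24 h no member was higher and 2 were lower, Sdhc with a difference of -0.24 and Cox4i1 with -0.16, against 9.12% and 2.06% of all genes. From 0 to 72 h 5 members were higher and 28 lower, against 21.8% and 16.3% of all genes, with a median of -0.26 over members and 0.00 over all genes. Complex III had 6 of 8 lower and a median of -0.63. Without control 72 h replicate 1, 18 members were called in place of 33, and Uqcr11, Ndufs5, Ndufb2, Uqcrq, Cox7a2 and Ndufb3, with differences of -1.11, -1.08, -1.07, -1.05, -1.03 and -0.82, were among the calls lost. With the 2 groups alone in the model 10 were called. Ndufa4l2, Ndufaf7 and Cox7a2l were higher at 72 h by 0.65, 0.42 and 0.32. From 24 to 72 h 7 members were higher and 14 lower, against 18.4% and 18.8% of all genes. These 21 calls were 13 without control 24 h replicate 4, 34 with array weights and 35 without the arrays with intestinal transcripts.

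Isoforms of complex IV subunits were read by probe sets of their own, whose signals cannot be set against each other as levels. Cox4i1 had group means of 12.68 to 13.10, whereas Cox4i2, the hypoxia-linked form, had 4.38 to 4.91, near the limit of low signal. Cox6a1 had 13.53 to 13.75 and none of its differences after MMS was called, while Cox6a2 was called at 8 h. Cox7a1, the heart and muscle form, exceeded the limit in the 8 h groups alone, with 4.79 in control and 4.84 in MMS cells. Cox7a2, Cox8a and Ndufa4, the ubiquitous forms, were of large spread, and none of their differences after MMS was called.

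Other genes of mitochondrial respiration were described from lists of known genes, and their counts stand against 28.7% of all genes higher and 25.0% lower at 8 h and against 25.0% and 19.4% at 24 h. Of 17 ATP synthase genes 5 were higher at 24 h (29.4%) and 1 lower, with Atp5pb and Atp5d higher by 0.34 and 0.20 and Atp5g1 at -0.60. Cytochrome c, Cycs, rose by 0.35 and cytochrome c1, Cyc1, by 0.29. Of 28 further assembly factors 10 were higher (35.7%) and 5 lower (17.9%), among them Coa6 (0.79), Cox19 (0.76) and Acad9 (0.66) against Cox20 (-0.57). These further factors numbered 8 higher (28.6%) and 7 lower at 8 h, close to the shares of all genes, with the copper chaperones Sco2 and Sco1 higher by 1.07 and 0.84 and Cox20 and Coa3 at -1.12 and -0.83. Of 16 regulators of mitochondrial biogenesis 7 were higher (43.8%) and 1 lower (6.25%) at 8 h, led by the mitochondrial helicase Twnk (1.21), Gabpb1 (0.83) and the mitochondrial transcription factor Tfam (0.71). At 24 h 7 were higher and 4 lower, with the mitochondrial RNA polymerase Polrmt (0.88) and the nuclear receptor Esrra (0.44) among the former and Gabpb2 and Gabpb1 (-0.32 and -0.30) among the latter. Of 15 genes of the tricarboxylic acid cycle 5 were higher (33.3%) and 3 lower at 24 h, including Idh3b (0.65), Pdhb (0.50) and Fh1 (0.42) against Suclg2 (-0.26), and 2 were higher and 6 lower at 8 h. At 72 h Cycs was higher by 0.55 and Cox19 by 0.41, and no biogenesis regulator was higher. None of the 13 genes of mitochondrial DNA had a probe set in the table used.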

How the data were processed

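Gene expression in primary MEFs was measured on Affymetrix arrays, and the authors deposited 1 table of log2 values of 45101 probe sets, normalized by RMA (version not given in the sources used here). Samples were grouped by treatment and time from the labels. Of the probe sets 34958 carry 1 gene symbol in the platform annotation, and the brightest of them stood for each of 18194 genes. Genes whose group means all lay under log2 4.40, the 40th percentile of the table, were not tested, which left 14135.

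The comparisons used lmFit and eBayes of limma 3.58.1 (R 4.3.3), with 1 coefficient per group over 35 arrays and 26 residual degrees of freedom. Tests were two-sided, Benjamini-Hochberg adjustment ran over all genes tested in each contrast, and calls were made at an adjusted p under 0.05. The scripts were tested on simulated data. The members and the gene lists were chosen with earlier results of these data known, so no score over the members was tested. Values are given for the members of each complex with the largest called differences whose groups did not overlap, and for the core subunits and isoforms in all cases, with further members called added after their values were seen. Ribosomal protein genes were summarized after the values were seen. Arrays carry no read depth, and their number limits the precision. Promoter sequences are from RefSeq (GRCm38.p6). Proteins were not compared.

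Other settings varied the scaling of arrays, the limit of low signal, how probe sets were chosen, which samples entered the model, array weights and the reference group, added the replicate number as a block, and left out each array in turn.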

Additional observations from a re-analysis of the deposited data

Results flagged for a closer look

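For the members printed array by array and for the complex means, Dixon's criterion was applied to 184 sets of 4 values, each 1 measure in 1 group. In 15 sets 1 value stood apart from the other 3, where chance alone gives about 1 in 20 for independent sets. These sets are not independent, and several of the 15 fall on the same array. Replicate 3 of MMS 24 h was low for Ndufs3 (10.45) and Ndufaf3 (8.01). Replicate 1 of control 72 h was low for Ndufs3 (10.09), Cox6b2 (6.22) and Ndufs5 (6.90). On both arrays all 24 members of large spread lay below their group mean, as they did on 4 other arrays. Replicate 4 of control 1 h stood apart for Sdhaf1 (8.01) and Ndufaf1 (8.39). Replicate 4 of control 0 h stood apart for Cox6b2 (7.31) and for the means of the complex I subunits (10.74) and complex IV subunits (11.73). Single values were those of Uqcrc1 in control 24 h replicate 1 (11.18), Sdhb in control 8 h replicate 1 (11.38), Cox6a2 in control 0 h replicate 3 (6.28), Ndufv3 in control 24 h replicate 3 (10.17) and the mean of complex II in control 8 h replicate 2 (10.54).

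The MMS effect itself differed between neighbouring times for 10 members from 1 to 8 h, for 25 from 8 to 24 h and for 17 from 24 to 72 h (limma, adjusted p under 0.05).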

How the results depend on the processing

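The 27 members higher after MMS at 24 h numbered 25 to 28 when any 1 array was left out and 36 with the ribosomal protein covariate. Leaving out 1 array at a time gave, for MMS at 1 h, 0 to 0 higher and 0 to 0 lower, at 8 h 8 to 11 higher and 7 to 8 lower, at 24 h 2 to 4 lower, and at 72 h 5 to 7 higher and 0 to 2 lower. Changes of the effect were called for 6 to 11 members from 1 to 8 h, 22 to 26 from 8 to 24 h and 14 to 19 from 24 to 72 h. Controls against 0 h gave 1 to 4 at 1 h, 43 to 52 at 8 h, 0 to 5 at 24 h and 18 to 41 at 72 h, and 13 to 28 from 24 to 72 h.

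A replicate block left 27 members higher and 3 lower at 24 h, 8 and 7 at 8 h, and 8 and 1 at 72 h. Of 15 correlations between same-numbered arrays 8 were over 0.1 (range -0.26 to 0.31), and 6 control and 8 MMS arrays correlated best with their own number, a hint from the data and not from the design. Since not every pair passed 0.1 and no source ties the numbers together, they were not taken to pair the samples.

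Counts that moved by over 1.5 times were as follows, and the cause was not tested. With only the groups compared in the model, 14 were lower at 8 h, 5 higher at 72 h, and 0 called in controls at 1 h, 0 at 24 h and 10 at 72 h. Array weights gave 5 lower at 24 h, 18 higher and 8 lower at 72 h, 27 changes from 24 to 72 h, and for controls 10 at 1 h, 9 at 24 h and 34 from 24 to 72 h. Control 0 h as reference, which adds the change of the controls, gave 1 higher at 1 h, 49 higher at 8 h, 5 lower at 24 h, 15 lower at 72 h, and 59, 58 and 30 changes of the effect. Without the 4 arrays with intestinal transcripts, 5 were higher at 72 h, and controls gave 1 at 1 h, 0 at 24 h and 35 from 24 to 72 h. The mean of all probe sets gave 5 lower at 24 h and 2 at 72 h, probe sets not marked as matching several transcripts 6 lower at 24 h, and a second quantile normalization 2 lower at 72 h. The ribosomal protein covariate, chosen after seeing the data, gave 15 lower at 8 h, 18 higher and 3 lower at 72 h, 19 changes from 1 to 8 h and 12 called in controls at 1 h. Leaving out the 4 arrays low in ribosomal protein genes, also chosen after seeing the data, gave 11 lower at 8 h, 5 lower at 72 h, 28 changes from 24 to 72 h and 1 in controls at 1 h and 1 at 24 h.

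Among the genes named by rule, those below changed sign where either setting made a call. Against control 0 h at 8 h these were Cox20 (0.054), Gabpb1 (-0.056), Dld (-0.15), Ndufs3 (0.43), Ndufs7 (0.29), Ndufs8 (0.21) and Cox8a (0.60), and at 72 h Ndufaf4 (-0.25), Ndufa4l2 (0.22), Cycs (-0.21), Bcs1l (0.13), Idh3a (-0.29) and Cox7a2l (0.24). For the change from 8 to 24 h they were Cox4i1 (-0.048), Ndufab1 (-0.0013), Ndufs3 (-0.054) and Sdhd (-0.040), and from 24 to 72 h Cox7a2l (0.091) and Ndufaf4 (-0.22). With the mean of all probe sets they were Atp5a1 (0.017 at 8 h, -0.086 at 24 h) and Sdhaf2 (-0.089 from 8 to 24 h). With probe sets not so marked they were Idh3a at 8 h (0.014), Ndufab1 (-0.30) and Tfb1m (0.0095) at 72 h, and Ndufb2 in controls (0.13 from 0 to 72 h, 0.18 from 24 to 72 h). With the ribosomal protein covariate 23 of all 75 members changed sign in controls at 8 h and 17 after MMS at 24 h, and the named genes with a call were Ndufa4 at 24 h (0.27) and, in controls at 8 h, Uqcrq (-0.036), Uqcr10 (-0.22) and Cox6c (-0.52).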
